A study of Bos taurus with 30 samples.

Results

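The bovine miRNAs from miR-2286 to miR-2490 in the naming series were first described in cattle. Of the 1030 bovine miRNAs listed in the testis table, 241 carry a number in this range after bta-miR-, with any letter or arm. Of these, 151 had a value above 0 in at least 1 library and are the members described here, and the other 90 were listed at 0 in all libraries. The study sequenced small RNA of the testis from 30 bull calves of the Holstein-Friesian breed, each sampled at 12 weeks of age and giving 1 library. Feeding differed from 2 weeks of age. On the High plane (15 calves) the daily ration was 10 L of milk replacer holding 1.5 kg, with concentrate ad libitum, and growth was planned at 1.0 kg a day. On the Moderate plane (15 calves) the ration was 4 L holding 0.5 kg, with 0.5 kg of concentrate, and growth was planned at 0.5 kg a day. Diet was taken from the diet characteristic of each label. In 18 of the 30 libraries the sample title names the opposite diet, and each diet result depends on that characteristic. The last letter of the sample code (H or L) goes with the characteristic in all 30 libraries. Which label is right is not known.

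A miRNA is cut from a hairpin in a longer transcript, first by Drosha in the nucleus and then by Dicer in the cytoplasm. Either arm of the hairpin, named 5p or 3p, can be loaded into Argonaute, where it lowers the translation and stability of mRNAs that pair with its seed. miRNAs known from a single lineage are often sparsely expressed, many lie within introns of protein-coding genes, and few of them have a known function.

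Values are the deposited CPM (counts per megaread of library size), scaled between libraries by TMM (a trimmed mean of M values), and are given as mean ± SD. Depth, worked out from the steps between low values, was 6.0003 to 19.98 M reads (megareads) per library, with 24 libraries at up to 10.3 and 6 at 16.7 or more. A count of 0 allows up to 3 reads, or 0.138 to 1.43 units depending on the library, for counting error only. Moderate replicate 5 stood apart, with 84.8% of its reads from miR-10b where the other 29 libraries had 37.0% to 48.99%. Of the testis markers checked, both rows for gonadal somatic cells (miR-202 and miR-140), all 4 for spermatogonia and 3 of 4 for germ cells were above 0 in all 30 libraries. Under High and Moderate, these summed to 3672 to 4590 and 1893 to 5057 for gonadal somatic cells, 5844 to 11085 and 5301 to 12926 for spermatogonia, and 90.2 to 265 and 22.8 to 185 for germ cells. Markers of other cells were present too, and their part in the results below was not tested. The red blood cell markers summed to 887 to 3606 under High and 755 to 7927 under Moderate, and the 7 leukocyte rows to 2512 to 6747 and 2292 to 5425. Under High and Moderate, the sums were 83216 to 139866 and 85353 to 178449 for smooth muscle, 8981 to 14616 and 5125 to 14721 for endothelium, and 11.5 to 17.4 and 10.7 to 24.8 for epithelium. Striated muscle markers summed to 7.50 to 14.9 and 2.85 to 18.6, with 2 of 3 rows at 0 in all libraries, and the liver miRNA miR-122 was at 0 to 2.84 and 0 to 0.476. In whole tissue, fewer cells of a type and less RNA per cell cannot be told apart.

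Together the members held 0.0246% ± 0.00555 of the reads of a library (SD, n = 30), from 0.00599% in Moderate replicate 5 to 0.0334%. A small number of them carried most of this. The most abundant, miR-2419-5p, made up 23.4% of the summed mean level, the first 4 made up 66.7% and the first 6 made up 78.4%. These 6 were the members with a mean of at least 10, a further 15 had a mean between 1 and 10, and 130 were below 1. miR-2419-5p ranked 147 of 1030 by mean level.

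The abundance of this range was low beside other bovine miRNAs. Of the 241 rows, 62.7% had a value above 0, against 90.3% of the 411 rows with lower numbers (let-7 included), 95.3% of the 148 rows named miR-2284 or miR-2285, which have many copies, and 83.5% of the 97 rows with the highest, most recent numbers (from miR-11900 on). The median of the mean levels, over miRNAs above 0, was 0.0620 for the members, 16.4 for the lower numbers, 0.306 for miR-2284 and miR-2285 and 0.0670 for the most recent numbers. By this median the members lay close to the most recently numbered miRNAs and below the other classes named here. By share of reads they lay above the most recent numbers, at a mean of 0.0246% against 0.00303%, and below the 0.111% of miR-2284 and miR-2285.

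Detection ran from every library to 1 library. There were 26 members above 0 in all 30 libraries, 45 in 15 to 29, 64 in 2 to 14 and 16 in 1 library, each of these last with 1 read in all. A single library held 38 to 91 members above 0, with the lowest number in Moderate replicate 5 and 64 to 91 in the other 29. Fractions of a read were found in 1 member, miR-2319b, and in 58 miRNAs overall. miR-2319b was at 50% of miR-2319a in each of the 21 libraries where either was above 0, so the pair is 1 measurement and not 2, and miR-2319a was in whole reads.

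**Figure D1:**
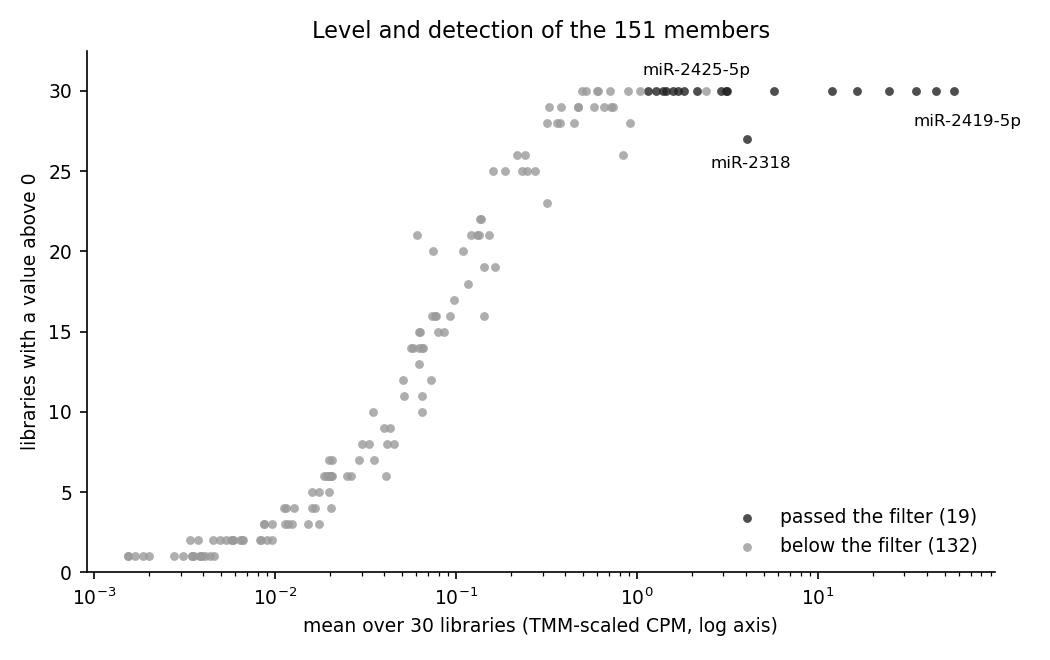
Mean level over 30 libraries (TMM-scaled CPM, log axis) against the number of libraries with a value above 0, 1 point per member. Black points are the 19 members that passed the filter (1 unit or more in 15 libraries or more) and grey points the other 132. Detection climbs with level, and miR-2318 lies below the others of its level, at 27 libraries.

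The number of members detected followed depth. The 6 deeper libraries held 84 to 91 members each, and the 24 others 38 to 84. Reduced by exact rarefaction to the depth of the shallowest library, the expected number was 63.1 ± 1.24 in the 6 deeper libraries and 63.8 ± 7.53 in the 24. High libraries held 76.4 ± 8.93 members and Moderate libraries 70.5 ± 11.6, or 72.8 ± 7.56 without Moderate replicate 5 (SD, n = 15, 15 and 14). At the lowest depth these became 65.3 ± 2.89, 62.0 ± 8.94 and 64.03 ± 4.75. The ranges of the diets overlapped in each case. As sequenced, the median was 71 members under each diet.

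**Figure D2:**
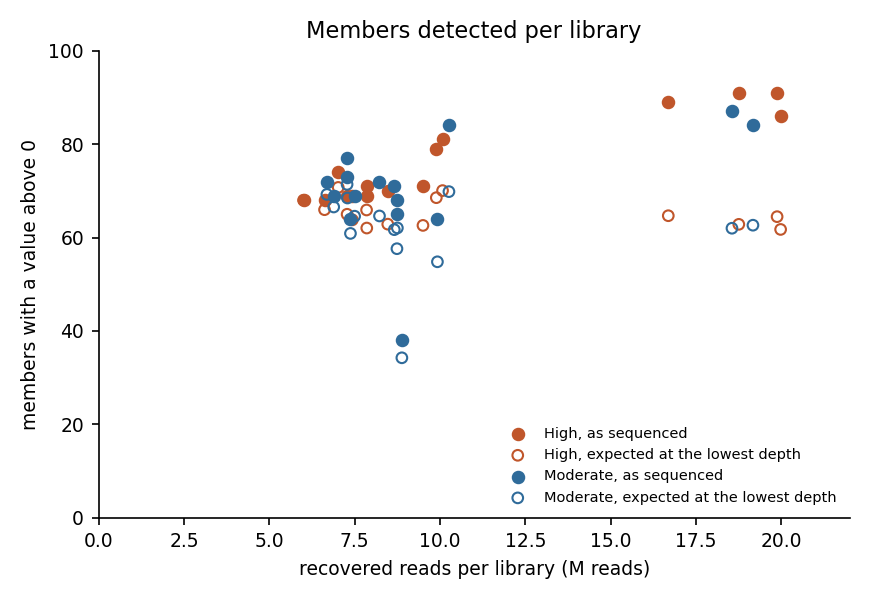
Members with a value above 0 in each library (vertical axis) against its recovered reads in M reads (horizontal axis). Filled points are the libraries as sequenced and open points the number expected at the depth of the shallowest library. The filled points reach 84 to 91 at the 6 deepest libraries, the open points stay near 63 there, and the lowest pair of points is Moderate replicate 5.

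Member by member, 69 were above 0 in more High than Moderate libraries, 31 in more Moderate libraries and 51 in equal numbers. These counts and those by single diet below cover members alone, with Moderate replicate 5 (38 members above 0) included. The same counts were not made over all miRNAs, so neither split is shown to be particular to the members. Over all miRNAs, 622 ± 30.2 were above 0 in a High library and 603 ± 41.8 in a Moderate library. Without Moderate replicate 5 the Moderate number was 612 ± 23.6 (SD, n = 15, 15 and 14). High libraries were deeper on average, at 10.9 ± 5.13 M reads against 9.61 ± 3.90, but not by median (8.47 against 8.66). Of the 29 members seen under a single diet, the 17 seen under High were in at most 3 libraries and the 12 seen under Moderate in at most 5. The member in 5 Moderate libraries and no High library was miR-2450c, with 5 reads in all. The widest gap the other way was that of miR-2382-3p, above 0 in 12 High and 4 Moderate libraries with 21 and 5 reads. Both were chosen after their values were seen.

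The hairpins of most members lie inside protein-coding genes. In RefSeq's genes for the ARS-UCD2.0 assembly, 148 of the 151 members matched a miRNA gene, from 123 hairpins. Of these hairpins, 104 (84.6%) overlapped the span of a protein-coding gene. Of the 82 hairpins in the same number range with no value above 0, 57 (69.5%) did. Strand is not in this table, so a host gene below means an overlapping span, and whether a miRNA and its host share a transcript was not tested. Another miRNA gene lay within 10 kb of 13 of the 123 hairpins.

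Among the 12 most abundant members, miR-2419-5p, miR-2336 and miR-2478 had no protein-coding gene over their hairpin. miR-2299-5p lies in B3GLCT, which adds glucose to fucose on thrombospondin repeats. miR-2483-5p lies in TENM1, a teneurin of the cell surface, and both miR-2313 arms in GRAMD1B, which moves cholesterol from the plasma membrane to the endoplasmic reticulum. miR-2318 lies in MADD, an activator of Rab GTPases, and miR-2425-5p in NCKAP5L. miR-2443 and miR-2484 overlap protein-coding genes that have only a locus number, LOC101903200 and LOC112445178. The miR-2443 hairpin is within 10 kb of the let-7a-3 and let-7b genes.

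miR-2299-5p was at 27.6 to 62.7 under High (median 43.2) and 36.2 to 65.6 under Moderate (median 46.5). miR-2483-5p was at 22.02 to 59.98 under High (median 35.4) and 11.9 to 46.9 under Moderate (median 34.3). miR-2336 was at 14.1 to 20.5 under High (median 16.5) and 11.4 to 20.8 under Moderate (median 15.7). The diets overlapped for all 3, and miR-2336 was the steadiest of the tested members. Its SD over the libraries on the log2(value + 0.5) scale was 0.20, against a median of 0.34 over the 387 miRNAs tested and 0.39 over the 19 tested members. In Moderate replicate 5, miR-2483-5p and miR-2336 were at the lowest of their 30 values, and miR-2299-5p at its highest.

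A few members varied far more between calves than this. miR-2318, with an SD of 1.10 on the log2(value + 0.5) scale, was the fourth most variable of the 387 miRNAs, and miR-2484 (0.89) ranked 10, miR-2313-5p (0.78) 14, miR-2419-5p (0.76) 16 and miR-2313-3p (0.70) 21. Without Moderate replicate 5 these ranks were 4, 9, 15, 11 and 16.

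miR-2318 was listed at 0 in 3 libraries, High replicate 12 and Moderate replicates 3 and 12, and at 1.60 to 7.35 in the other 27. A count of 0 allowed up to 0.355, 0.360 and 0.394 units in those 3 libraries, less than the lowest of the other 27. miR-2318 was at 0 to 6.99 under High (median 4.62) and 0 to 7.35 under Moderate (median 3.19), so both diets held a library at 0.

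miR-2425-5p had 2 ranges of values with none between. It was at 0.118 to 0.951 in 17 libraries, 9 High and 8 Moderate, and at 2.54 to 8.57 in the other 13, 6 High and 7 Moderate. Both ranges held libraries of each diet in similar numbers. Of the members above 0 in at least 27 libraries, miR-2318 and miR-2425-5p had the widest empty intervals between neighbouring values, at 2.07 and 1.07 on the log2(value + 0.5) scale, leaving out the 2 highest and the 2 lowest libraries. This pattern was noticed in the values, and was not tested.

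miR-2484 had a median of 6.81 but reached 80.3 in High replicate 1, 31.97 in Moderate replicate 14 and 31.9 in Moderate replicate 6. The next highest library was at 17.2. miR-2312, chosen after its values were seen, had a median of 0.360 and reached 8.13 in Moderate replicate 7 and 2.31 in High replicate 4. Its hairpin overlaps that of miR-2284j, so that reads of the 2 genes may not be separable.

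**Figure D3:**
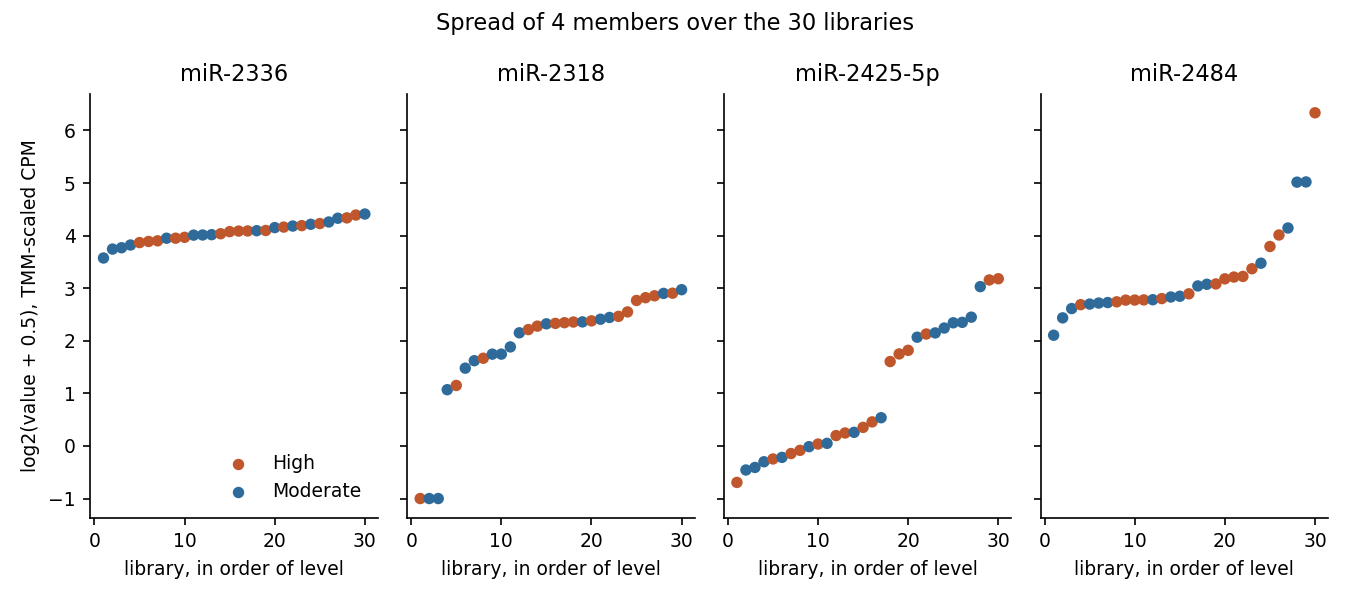
Level of 4 members in the 30 libraries, each panel ordered from lowest to highest, on the log2(value + 0.5) scale (vertical axis, TMM-scaled CPM), coloured by diet. miR-2336 is nearly level, miR-2318 has 3 libraries at 0, miR-2425-5p has a step between 0.951 and 2.54, and miR-2484 rises steeply in its last libraries up to 80.3.

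Both arms were listed for 34 hairpins of this range, and both were above 0 for 26. Both arms passed the filter for 3 of them. The 3p arm of miR-2313 was the more abundant in all 30 libraries, at 24.8 ± 11.4 against 5.68 ± 4.12, with a ratio of 2.196 to 8.92 (median 4.86). The 5p arm of miR-2483 was the more abundant in all 30, at 34.7 ± 9.48 against 2.14 ± 0.604, with a ratio of 8.02 to 41.9 (median 16.3). The 5p arm of miR-2320 was higher in 29 of 30, at 2.89 ± 0.691 against 1.45 ± 0.361, with a ratio of 0.846 to 3.78 (median 1.98). The preferred arm did not change between libraries for these hairpins, except in 1 library for miR-2320. miR-2419 and miR-2299 were more one-sided, with a median 5p to 3p ratio of 73.1 in the 26 libraries and 44.4 in the 28 libraries where both arms were above 0.

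The question of diet was put to 387 miRNAs that reached 1 unit in 15 libraries or more, 19 of them members. The members just inside this limit were miR-2460 (16 libraries at 1 or more), which overlaps the growth factor gene FGF1, miR-2344 (22) and miR-2415-3p (23). Just outside it were miR-2376 (14), which overlaps the tapasin gene TAPBP, miR-2425-5p (13) and miR-2299-3p (11).

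Of the 19 tested members, miR-2419-5p rose under High, 0 fell and 18 did not pass (limma on log2(value + 0.5), Benjamini-Hochberg adjusted p under 0.05). Over all miRNAs tested, 19 of 387 passed, or 4.91% (2.33% higher and 2.58% lower), and the members' share of 5.26% was near that background. At an unadjusted p under 0.05 there were 4 members (21.1%) among 82 miRNAs (21.2%). The median log2 difference, High minus Moderate, was 0.07 over the 19 members and 0.03 over the 387, and it was positive for 16 of the 19 (84.2%) against 56.3% of the 387. These 19 are the members that reached the filter, and the difference between the shares was not tested. With all 838 miRNAs above 0 in the fit, 85 of the 151 members had a positive log2 difference and 66 a negative one, with medians of 0.01 for the members and 0.01 for all miRNAs. In that fit, 0 of 838 passed in limma, and 8 members and 104 miRNAs in all had an unadjusted p under 0.05.

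miR-2419-5p was at 26.1 to 106 under High (median 66.04) and 16.2 to 101 under Moderate (median 38.3). The groups overlapped over most of their range, 13 of 15 High libraries lay above the Moderate median, and the library at 101 was the highest under Moderate by a wide margin, the next being at 62.5. Means were 70.1 ± 24.9 and 42.3 ± 22.2, and the log2 difference was 0.78 with a standard error of 0.23, a 1.72-fold change (95% confidence interval of the log2 difference 0.32 to 1.25, adjusted p = 0.0409 in limma). On the recovered reads, edgeR gave 0.71 (adjusted p = 0.0477) and DESeq2 0.72 (adjusted p = 0.0226), in fits where 9.52% of 378 and 11.6% of 432 miRNAs passed. With upper-quartile scaling, where 5.41% of 388 passed, it was 0.79 (adjusted p = 0.0492 in limma).

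Of the 4 germ cell markers, 2 were also higher under High. miR-34c was at 71.2 to 238 under High (median 95.05) and 9.51 to 163 under Moderate (median 55.6), a log2 difference of 0.96 (adjusted p = 0.0260 in limma). miR-34b was at 4.60 to 15.7 (median 6.87) and 2.08 to 11.7 (median 4.07), a difference of 0.73 (adjusted p = 0.0313 in limma). The diets overlapped for both. miR-449a, the other germ cell marker tested, had a log2 difference of 0.02 (adjusted p = 0.949 in limma), and miR-449b was at 0 to 0.848 under High and 0.124 to 0.951 under Moderate, below the filter. Without Moderate replicate 5, miR-34c stood at 0.79 and miR-34b at 0.68 (adjusted p = 0.0107 and 0.0201 in limma). Grouped by the titles, they stood at 0.32 and 0.22 and did not pass (adjusted p = 0.981 for each in limma). Neither passed in the 12 libraries where both labels give the same diet (adjusted p = 0.155 for each in limma). In the 18 where the labels differ, neither passed (adjusted p = 0.280 and 0.352 in limma). Both log2 differences were positive in each of these settings. The part of germ cells in the difference of miR-2419-5p was not tested.

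The other arm of this hairpin, miR-2419-3p, did not reach the filter and is given for that reason alone. It was at 0 to 2.65 under High (median 0.920) and 0 to 1.85 under Moderate (median 0.232), with 13 of 15 High libraries above the Moderate median. Its means were 1.14 ± 0.856 and 0.522 ± 0.573, from 211 High and 78 Moderate reads. In the fit with no filter its log2 difference was 0.66 (unadjusted p = 0.0233, adjusted p = 0.264 in limma), so it did not pass.

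**Figure D4:**
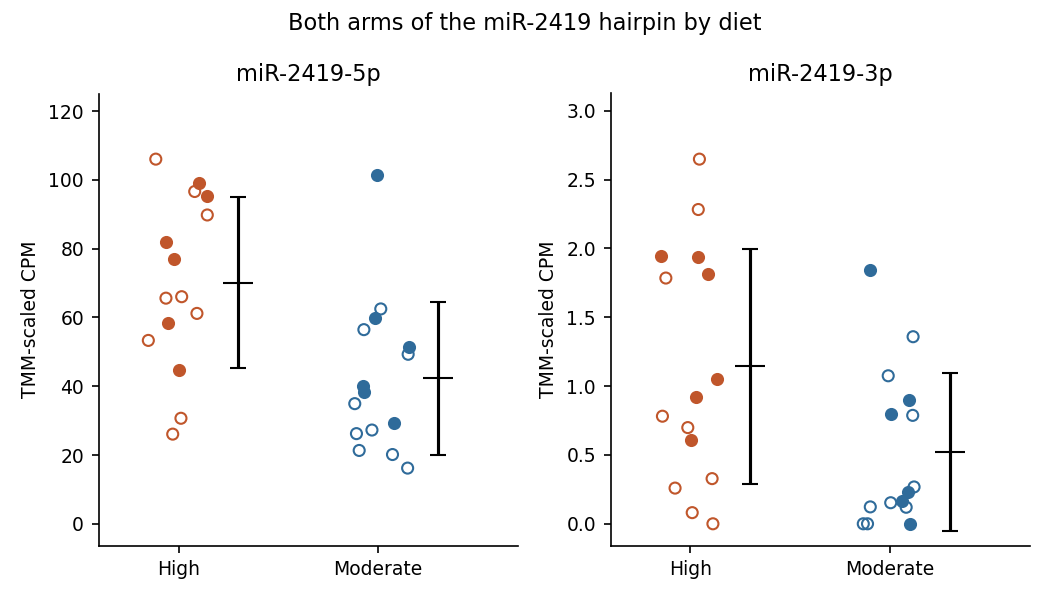
Level of miR-2419-5p and miR-2419-3p (TMM-scaled CPM) in the 15 High and 15 Moderate libraries, with mean and SD as bars. Filled points are the 12 libraries whose title and diet characteristic give the same diet, open points the 18 whose labels differ. For both arms 13 of 15 High points lie above the Moderate median, and the diets overlap.

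The call of miR-2419-5p was close to the threshold. Leaving out each library in turn, the log2 difference stayed between 0.699 and 0.885, and the adjusted p ran from 0.0242 (without Moderate replicate 5, log2 difference 0.79, in a fit where 11.7% of 385 miRNAs passed) to 0.0718, passing in 12 of 30 fits. It did not pass without any 1 of High replicates 2, 3, 4, 5, 6, 7, 10, 11, 13, 14 and 15 or Moderate replicates 2, 3, 4, 6, 7, 10 and 11. In the 24 libraries under 12 M reads, where 0.773% of 388 miRNAs passed, the log2 difference was 0.70 (adjusted p = 0.191, 11 against 13 libraries). In the 6 deeper libraries the 4 under High were at 53.3 to 106 and the 2 under Moderate at 34.9 and 51.4, without overlap. With 4 against 2 libraries, other members did not overlap either. miR-2460, with a log2 difference of 0.00 in the main fit, was at 1.36 to 1.78 under High and 0.765 to 1.14 under Moderate. miR-2425-5p lay the other way, at 0.342 to 3.87 and 4.23 to 7.67. The share of all miRNAs without overlap was not counted.

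Grouped by the diet in the titles, miR-2419-5p was at 51.4 ± 27.6 in the libraries titled High and 61.1 ± 26.8 in those titled Moderate, a log2 difference of -0.33 (adjusted p = 0.981 in limma). No miRNA of 387 passed in that grouping, and 11 had an unadjusted p under 0.05, none of them a member. In the 12 libraries where both labels give the same diet, its means were 76.1 ± 21.1 under High and 53.4 ± 25.9 under Moderate (log2 difference 0.57, adjusted p = 0.446, 6 against 6). In the 18 where they differ, grouped by the diet characteristic, it was at 66.2 ± 27.7 and 34.9 ± 17.02 (0.92, adjusted p = 0.142, 9 against 9). limma called 0 of 391 miRNAs in the 12 and 0 of 384 in the 18, with 43 and 58 at an unadjusted p under 0.05. The gap between these log2 differences was -0.35 and did not pass (interaction term in limma, 95% confidence interval -1.26 to 0.56, adjusted p = 0.850).

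The members next by p did not pass. miR-2344, which overlaps the tubulin cofactor gene TBCD, was at 0.888 to 2.37 under High (median 1.40) and 0.312 to 2.09 under Moderate (median 1.01), a log2 difference of 0.35 (adjusted p = 0.112 in limma). miR-2320-5p was at 2.33 to 4.02 (median 3.20) and 1.32 to 3.93 (median 2.50), a difference of 0.26 (adjusted p = 0.147 in limma). miR-2435 was at 1.11 to 2.46 (median 1.66) and 0.813 to 2.52 (median 1.25), a difference of 0.25 (adjusted p = 0.189 in limma). For each of these 3, 14 of 15 High libraries lay above the Moderate median, and the diets overlapped. All 3 were below 5 units, where a pseudocount of 0.5 pulls differences toward 0. With a pseudocount of 0.1, miR-2344 stood at 0.48 (adjusted p = 0.111 in limma).

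miR-2415-3p had the most negative log2 difference of the tested members, -0.31 (95% confidence interval -0.70 to 0.07, adjusted p = 0.353 in limma). It was at 0.687 to 2.63 under High (median 1.29) and 0.736 to 5.23 under Moderate (median 1.89), with the highest value in Moderate replicate 5. Without that library its log2 difference was -0.22. miR-2299-5p and miR-2483-5p, the next members by p among the abundant ones, had log2 differences of -0.13 (95% confidence interval -0.34 to 0.08) and 0.28 (-0.03 to 0.60). Without Moderate replicate 5, miR-2483-5p stood at 0.19.

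The most variable members other than miR-2419-5p had the widest intervals of the diet difference. miR-2318 had a log2 difference of 0.47 with a 95% confidence interval from -0.31 to 1.24, and miR-2484 one of 0.14 (-0.49 to 0.78), which became -0.07 without High replicate 1. miR-2313-3p and miR-2313-5p stood at 0.00 (-0.50 to 0.51) and 0.10 (-0.46 to 0.66). Of these intervals, that of miR-2318 includes a difference as large as the 0.78 of miR-2419-5p. The interval of miR-2336, -0.11 to 0.21 around 0.05, was the narrowest of the 19. The other 7 tested members, among them miR-2443, miR-2478, miR-2460, miR-2320-3p and miR-2483-3p, had log2 differences between -0.12 and 0.10.

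**Figure D5:**
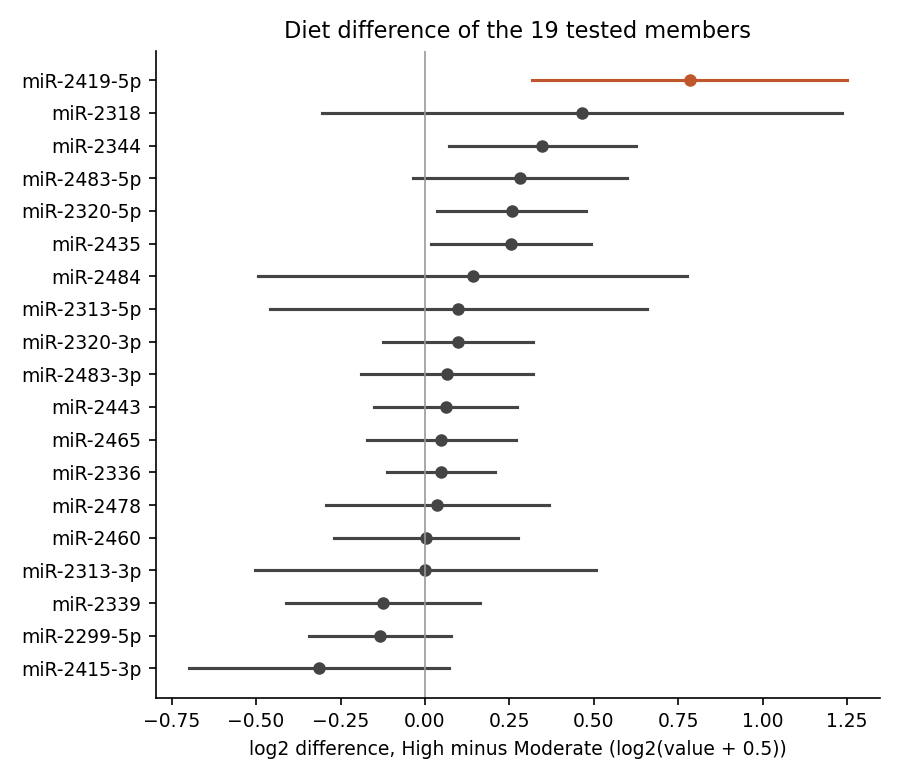
Log2 difference, High minus Moderate, of the 19 tested members on the log2(value + 0.5) scale (horizontal axis), with 95% confidence intervals from limma as lines. miR-2419-5p, in orange, passed the adjusted threshold. The intervals of miR-2344, miR-2320-5p and miR-2435 also lie above 0 but did not pass after adjustment, and those of miR-2318, miR-2484 and both miR-2313 arms are the widest.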

How the data were processed

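Per the labels' protocols, RNA was isolated with Qiagen's RNeasy Plus Universal kit and turned into libraries by Illumina's TruSeq small RNA method. The submitters' processing notes name cutadapt 2.6, edgeR 3.5, FastQC 0.11.8 and R 3.4. For the aligner, miRNA reference and build, nothing is given in the sources used here. A single table was deposited, and its values are a normalized signal, CPM on a TMM-scaled library size, not counts. Low values are multiples of 1 read: 95.3% of the 18379 values above 0 were whole reads within 0.02 read, and rounded reads served for depth, rarefaction, edgeR and DESeq2. The count test on these reads called 36 miRNAs in edgeR.

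The main test was limma 3.58.1 (trended variances, diet as sole term, 15 against 15) on log2(value + 0.5), over all miRNAs that reached 1 unit in 15 libraries or more. edgeR 4.0.16 and DESeq2 1.42.0 ran in R 4.3.3. P-values are two-sided and set a difference against the spread between calves. Tests were tried on simulated data. The members and lists were chosen with earlier results of these data known. Members were named if past the threshold (in any fit), among the 12 highest by mean or 8 smallest by p, tested on both arms, or among the 3 nearest the filter on each side. The host gene of 1 named member is not reported here. Other markers checked were those of muscle, endothelium, epithelium and liver.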

Additional observations from a re-analysis of the deposited data

How the results depend on the processing

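No paired analysis was run, as each calf gave 1 library and the labels name no pairs between the diets. The 1 member higher under High became 0 with no filter (with or without Moderate replicate 5), library totals alone, log10 depth as a covariate, libraries under 12 M reads, the titles, or the 12 or 18 libraries by label agreement, and ranged from 0 to 1 over the 30 fits without 1 library. It stayed 1 with pseudocounts of 0.1 and 2, a minimum of 5, edgeR, DESeq2 and upper-quartile scaling, and 0 members were lower in every setting run. miR-2419-5p kept its sign except with the titles (-0.33). Over all miRNAs, 9 higher and 10 lower became 0 and 0 with no filter, library totals alone, the titles or the 12 or 18 libraries, 1 and 2 under 12 M reads, 10 and 26 in edgeR, 21 and 29 in DESeq2, 19 and 26 without Moderate replicate 5, and 13 and 18 without it and with no filter, the last fit being added after seeing the data. Without 1 library they ranged from 0 (High replicate 5) to 19 and 0 to 26. With library totals alone 61 of 389 miRNAs had an unadjusted p under 0.05 in limma, and the median log2 difference of all miRNAs was 0.21. There miR-2299-5p stood at 0.077.

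Signs also turned, with no call, by the titles for miR-2483-5p (-0.028), miR-2313-3p (-0.38), miR-2313-5p (-0.32), miR-2318 (-0.19), miR-2443 (-0.072), miR-2478 (-0.017), miR-2320-5p (-0.011), miR-2344 (-0.15), miR-2415-3p (0.16), miR-2483-3p (-0.039) and miR-2460 (-0.0051). In the 12 libraries they turned for miR-2313-3p (-0.47), miR-2313-5p (-0.28), miR-2443 (-0.013) and miR-2460 (-0.0028), and in the 18 for miR-2484 (-0.13). Under 12 M reads they turned for miR-2483-3p (-0.058) and miR-2460 (-0.15, and -0.015 with log10 depth). In edgeR and DESeq2 miR-2313-3p stood at -0.013 and -0.011, and in DESeq2 miR-2484 at -0.36 and miR-2313-5p at -0.0012. Without 1 library, miR-2313-3p ranged from -0.090 to 0.091, miR-2484 from -0.075 to 0.27, miR-2478 from -0.013 to 0.12 and miR-2460 from -0.049 to 0.047. Some settings held fewer libraries or tested more miRNAs, while the titles kept all 30 libraries and 387 miRNAs. The cause of these changes was not tested.

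Members detected per library fell from 76.4 to 65.3 under High at the lowest depth, and to 21 under High and 20.4 under Moderate at a value of at least 1. Without miR-2419-5p the members' share of reads under High was 0.0202% in place of 0.0277%. A count of 0 allows up to 0.138 to 1.43 units depending on the library, and 130 of the 151 members had a mean below 1, so a member at 0 in a library is not shown to be absent at this depth.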
